A study of Schizosaccharomyces pombe with 18 samples.

Results

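Heat shock proteins and their helpers were followed in fission yeast (*Schizosaccharomyces pombe*) cells labelled as overexpressing 1 of the paralogs of ribosomal protein L32. The members were taken from a list of 9 genes by their symbol in the array annotation: *hsp9*, *hsp16*, *hsp104*, *hsp90*, *ssa1*, *ssa2*, *sks2*, *mas5* and *psi1*. A named probe set was found for 8 of the 9, among 2937 named *S. pombe* probe sets. No probe set carries the name *hsp104* in the annotation used here, and this gene was not analysed. All 8 probe sets lay above background on all 18 arrays.

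Heat shock proteins are molecular chaperones that keep other proteins folded. Small heat shock proteins hold unfolded proteins without using ATP, Hsp70 proteins bind and release them in cycles driven by ATP, J-domain proteins start these cycles, and Hsp90 completes the folding of kinases and other clients. In fission yeast some of these genes are switched on by heat shock factor Hsf1, some by the stress-activated kinase Sty1 and its transcription factor Atf1, and others are needed at high levels by growing cells.

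Total RNA came from SP-Q01 cells in EMM2 medium, harvested at an OD600 of 10 (early stationary phase) or 0.5 (log phase). The plasmid held the *rpl32-1* or *rpl32-2* gene in the strains of these names and was empty (pESP3) in WT cells. Each of the 6 groups had 3 arrays, labelled as biological replicates. The groups were *rpl32-1*, *rpl32-2* and WT cells in early stationary phase and *rpl32-1*, *rpl32-2* and WT cells in log phase. Levels are log2 values, quantile-normalized so that every array has the same distribution over the *S. pombe* probe sets, and a difference of 1 is a 2-fold change. A gene was called where its change was at least 2-fold and its adjusted p in limma was under 0.05. Levels of different probe sets cannot be set against each other.

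The arrays as deposited fell into 5 sets of different distribution that ran across the groups. Signal was weakest on *rpl32-1* log array 3 and WT early stationary array 3, where 18.69% and 21.69% of the probe sets did not exceed background, while this share was 0.72% to 4.70% elsewhere. The *rpl32-2* probe set went against its label: it lay between 7.72 and 10.88 on *rpl32-1* early stationary array 3 and on 4 of the 6 *rpl32-2* arrays, against 13.50 to 13.78 on the WT arrays. In log phase the *rpl32-1* probe set ranged from 14.11 to 14.37 in *rpl32-1* cells and from 13.54 to 14.37 in WT cells. In early stationary phase it ranged from 11.68 to 14.25 in *rpl32-1* cells and from 13.48 to 14.29 in WT cells. The top of the normalized scale is 14.37, which leaves little room for a rise above WT cells. The difference from WT cells was 0.39 ± 0.51 SE in log phase (adjusted p = 0.92 in limma) and −0.64 ± 0.51 in early stationary phase (adjusted p = 0.945 in limma). The early stationary *rpl32-1* arrays had 14.25, 13.55 and 11.68. On the values as deposited, which were not set to this scale, the difference was 0.38 ± 0.61 in log phase and −1.02 ± 0.61 in early stationary phase. The part of the scale in these differences was not tested. The strain names below are therefore those of the labels, and *rpl32-2* cells are the cells labelled so.

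Of the small heat shock proteins, *hsp16* codes for a chaperone with an alpha-crystallin domain. It had 14.09, 14.18 and 14.25 in *rpl32-1* cells, 13.85, 13.52 and 14.04 in *rpl32-2* cells and 14.20, 14.09 and 14.20 in WT cells in early stationary phase. In log phase it had 9.08, 12.68 and 11.02 in *rpl32-1* cells, 10.83, 10.08 and 10.52 in *rpl32-2* cells and 9.91, 10.61 and 11.20 in WT cells. Every early stationary array was above every log array, and *rpl32-1* log array 2 stood well above the other log arrays. *hsp16* was 9.49-fold higher in early stationary phase in *rpl32-1* cells (log2 change 3.25 ± 0.60 SE, adjusted p = 0.00048 in limma), 10.0-fold higher in *rpl32-2* cells (3.33 ± 0.60, adjusted p = 0.00071) and 12.1-fold higher in WT cells (3.59 ± 0.60, adjusted p = 0.00028). Among the 8 members it had the largest change between phases in all 3 strains, and it was called in all 3 on the values as deposited too.

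The other small heat shock protein, *hsp9*, codes for a small stress protein related to Hsp12 of *S. cerevisiae*. It was at 14.37 on all 3 *rpl32-1* arrays, at 14.25, 14.37 and 14.29 in *rpl32-2* cells and at 14.37 on all 3 WT arrays in early stationary phase. The log phase values were 13.11, 13.79 and 13.80 in *rpl32-1* cells, 13.44, 13.68 and 13.57 in *rpl32-2* cells and 13.31, 13.28 and 13.40 in WT cells. The phases did not overlap in any strain. On 7 of the 9 early stationary arrays *hsp9* was the brightest of the named *S. pombe* probe sets, and 14.37 is the value the normalization gives to the brightest, so its level there has no room above and its spread of 0 is set by the scale. The change was 0.81 ± 0.15 (adjusted p = 0.00054 in limma) in *rpl32-1* cells and 0.74 ± 0.15 (adjusted p = 0.0018) in *rpl32-2* cells, both below 2-fold and so not called. In WT cells it was 1.04 ± 0.15 (adjusted p = 0.0001) and called, but just short of 2-fold without WT early stationary array 3 (adjusted p = 0.00047). The top of the scale limits these changes, and a call in WT cells alone does not show a difference between strains. The spread of 0 enters the spread shared by the fit, so these standard errors and p values are likely too small. As deposited the change was 0.64 ± 0.37 (adjusted p = 0.374 in limma) in *rpl32-1* and 0.98 ± 0.37 (adjusted p = 0.157) in *rpl32-2* cells. In WT cells it was 0.84 ± 0.37 (adjusted p = 0.214), and none was called.

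**Figure D1:**
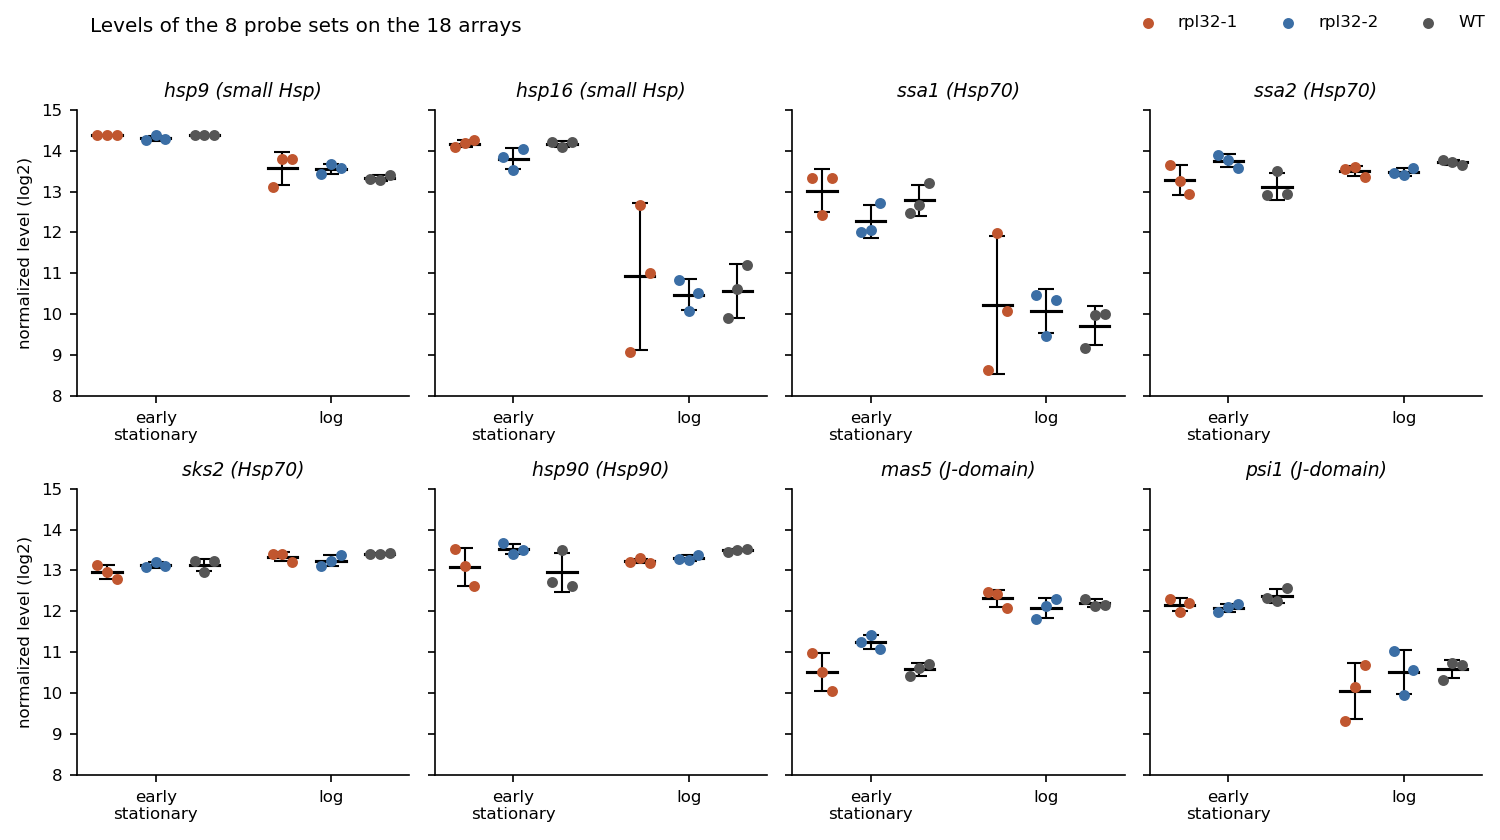
Normalized level (log2) of the 8 probe sets on each of the 18 arrays, with *rpl32-1*, *rpl32-2* and WT cells in early stationary phase on the left of each panel and in log phase on the right; bars are the mean and SD of 3 arrays, and heights of different panels cannot be compared. Every early stationary array lies above every log array for *hsp9*, *hsp16*, *ssa1* and *psi1* and below for *mas5*, while *ssa2*, *sks2* and *hsp90* stay within 12.61 to 13.90.

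The 3 Hsp70 genes of the cytosol did not move together. *ssa1* had 13.32, 12.42 and 13.32 in *rpl32-1* cells, 12.02, 12.05 and 12.72 in *rpl32-2* cells and 12.48, 12.67 and 13.21 in WT cells in early stationary phase. In log phase it had 8.63, 11.98 and 10.07 in *rpl32-1* cells, 10.46, 9.47 and 10.35 in *rpl32-2* cells and 9.17, 9.99 and 10.01 in WT cells. The early stationary arrays were again all above the log arrays, with *rpl32-1* log array 2 closest to them and *rpl32-1* log array 1 the lowest. *ssa1* rose 6.94-fold in *rpl32-1* cells (2.80 ± 0.60, adjusted p = 0.00149 in limma), 4.51-fold in *rpl32-2* cells (2.17 ± 0.60, adjusted p = 0.0123) and 8.35-fold in WT cells (3.06 ± 0.60, adjusted p = 0.00099). Without *rpl32-2* log array 2 the change in *rpl32-2* cells was 1.85 and no longer called (adjusted p = 0.0583), nor was it called with the set of arrays in the model (1.93 ± 0.71, adjusted p = 0.0585).

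*ssa2*, which codes for a close relative of Ssa1, had 13.66, 13.25 and 12.93 in *rpl32-1* cells, 13.90, 13.78 and 13.58 in *rpl32-2* cells and 12.92, 13.50 and 12.93 in WT cells in early stationary phase. The log phase values were 13.54, 13.60 and 13.35 in *rpl32-1* cells, 13.45, 13.40 and 13.58 in *rpl32-2* cells and 13.76, 13.71 and 13.65 in WT cells. Its change was −0.22 ± 0.18 (adjusted p = 0.332 in limma) in *rpl32-1* cells and 0.28 ± 0.18 (adjusted p = 0.263) in *rpl32-2* cells, where centring each array on its median in place of quantile normalization gave −0.21. In WT cells it was −0.59 ± 0.18 (adjusted p = 0.0171, 1.51-fold), with all 3 early stationary arrays below the log arrays but short of 2-fold. Whether the *ssa1* and *ssa2* probe sets also read each other's transcript was not examined here.

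*sks2* codes for the Hsp70 that sits on ribosomes and binds new protein chains, as Ssb does in *S. cerevisiae*. It kept within 12.79 to 13.42 on the 18 arrays. It had 13.13, 12.96 and 12.79 in *rpl32-1* cells, 13.08, 13.21 and 13.10 in *rpl32-2* cells and 13.22, 12.97 and 13.22 in WT cells in early stationary phase, against 13.41, 13.40 and 13.20 in *rpl32-1* cells, 13.11, 13.24 and 13.37 in *rpl32-2* cells and 13.39, 13.41 and 13.42 in WT cells in log phase. In *rpl32-1* and WT cells the early stationary arrays were all below the log arrays, and in *rpl32-2* cells the phases overlapped. The change was −0.38 ± 0.12 (adjusted p = 0.0162 in limma) in *rpl32-1* cells, −0.11 ± 0.12 (adjusted p = 0.527; 0.22 as deposited) in *rpl32-2* cells and −0.27 ± 0.12 (adjusted p = 0.0784) in WT cells.

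*hsp90* had 13.53, 13.11 and 12.61 in *rpl32-1* cells, 13.66, 13.41 and 13.51 in *rpl32-2* cells and 12.71, 13.50 and 12.63 in WT cells in early stationary phase. In log phase it had 13.21, 13.30 and 13.19 in *rpl32-1* cells, 13.28, 13.25 and 13.38 in *rpl32-2* cells and 13.46, 13.51 and 13.52 in WT cells. The early stationary arrays of WT cells were spread (SD 0.48), with array 2 at the log level and arrays 1 and 3 below it, while the log arrays lay close together (SD 0.03). The change was −0.15 ± 0.22 (adjusted p = 0.585 in limma) in *rpl32-1* cells, 0.22 ± 0.22 (adjusted p = 0.475; −0.28 after median centring) in *rpl32-2* cells and −0.55 ± 0.22 (adjusted p = 0.0553) in WT cells. *hsp90* was not called in any strain.

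The J-domain partners of Hsp70 moved in opposite directions. *mas5*, whose product is the counterpart of Ydj1 of *S. cerevisiae*, had 10.99, 10.52 and 10.05 in *rpl32-1* cells, 11.24, 11.43 and 11.08 in *rpl32-2* cells and 10.41, 10.62 and 10.71 in WT cells in early stationary phase. The log phase values were 12.47, 12.42 and 12.08 in *rpl32-1* cells, 11.82, 12.13 and 12.31 in *rpl32-2* cells and 12.30, 12.14 and 12.15 in WT cells. All 9 early stationary arrays were below all log arrays, with those of *rpl32-2* cells the nearest. *mas5* fell 3.49-fold in *rpl32-1* cells (−1.80 ± 0.20, adjusted p = 9e-06 in limma) and 3.07-fold in WT cells (−1.62 ± 0.20, adjusted p = 3.9e-05). In *rpl32-2* cells the change was −0.83 ± 0.20 (adjusted p = 0.00623), short of 2-fold. It was called there with the set of arrays in the model, as a fixed term (−1.30, adjusted p = 0.00203) or a random block (−1.04, adjusted p = 0.00111), and after median centring (−1.08, adjusted p = 0.00211), and it was −0.34 as deposited.

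*psi1*, the counterpart of Sis1 of *S. cerevisiae*, had 12.30, 11.99 and 12.20 in *rpl32-1* cells, 11.98, 12.11 and 12.19 in *rpl32-2* cells and 12.32, 12.26 and 12.57 in WT cells in early stationary phase. In log phase it had 9.32, 10.14 and 10.68 in *rpl32-1* cells, 11.02, 9.95 and 10.56 in *rpl32-2* cells and 10.32, 10.73 and 10.70 in WT cells. The phases were far apart in all 3 strains. *psi1* rose 4.33-fold in *rpl32-1* cells (2.11 ± 0.29, adjusted p = 4.5e-05 in limma), 3-fold in *rpl32-2* cells (1.59 ± 0.29, adjusted p = 0.00084) and 3.49-fold in WT cells (1.80 ± 0.29, adjusted p = 0.00023).

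**Figure D2:**
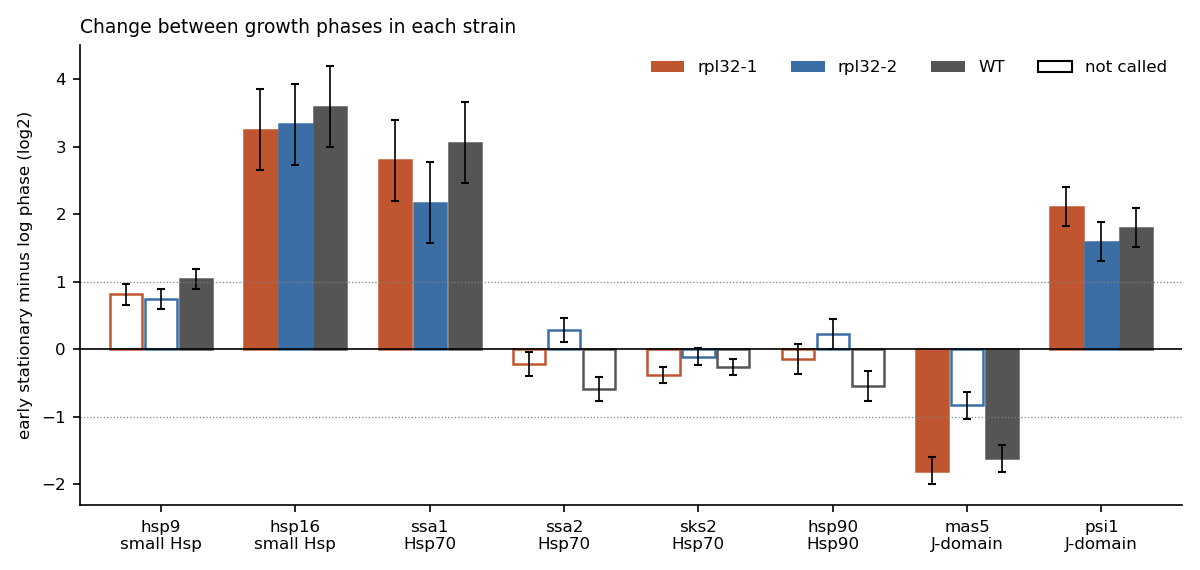
Change between early stationary and log phase (log2) of each gene in *rpl32-1*, *rpl32-2* and WT cells, with the standard error of the limma fit; filled bars were called, open bars were not, and dotted lines mark 2-fold. *hsp16*, *ssa1* and *psi1* were called higher in all 3 strains and *mas5* lower in *rpl32-1* and WT cells. *ssa1* was not called in *rpl32-2* cells with the set of arrays in the model, nor in *rpl32-1* cells with the methods' t-test.

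Counted together, 4 of the 8 members were called in *rpl32-1* cells, 3 higher and 1 lower in early stationary phase, where 22.8% of all *S. pombe* probe sets were called (11.7% higher and 11.1% lower). In *rpl32-2* cells 3 were called, all higher, against 11.8% of all (5.72% higher and 6.09% lower). In WT cells 5 were called, 4 higher and 1 lower, against 18.8% of all (9.74% higher and 9.09% lower). Members that lay without overlap above the log arrays were 4 in *rpl32-1*, 5 in *rpl32-2* and 4 in WT cells, where 27.6%, 21.7% and 24.7% of all probe sets did so. Those that lay below them were 2, 1 and 3, beside 35.2%, 25.5% and 32.6%. The median change of the 8 members was 0.33 in *rpl32-1*, 0.51 in *rpl32-2* and 0.38 in WT cells, and that of all probe sets was −0.09, −0.04 and −0.07. Without the 5 arrays on which the *rpl32-2* probe set was low, which leaves 1 array in each *rpl32-2* group, 0 members were called in *rpl32-2* cells, against 3.47% of all probe sets, with changes of 3.04 ± 1.28 for *hsp16* (adjusted p = 0.189 in limma), 1.58 ± 1.24 for *ssa1* (adjusted p = 0.482) and 0.97 ± 0.52 for *psi1* (adjusted p = 0.299).

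The values as deposited gave fewer calls of members in WT cells alone. In *rpl32-1* cells they gave 4, 3 higher and 1 lower, against 3.92% of all probe sets (2.76% higher and 1.16% lower), and the median change over all was −0.13. In *rpl32-2* cells 3 members were called, all higher, against 3.23% of all (3.20% higher and 0.0340% lower), with a median over all of 0.75. In WT cells *hsp16* alone was called, higher in early stationary phase, against 1.80% of all (0.817% higher and 0.987% lower), with a median over all of −0.65. There *ssa1* (2.55, adjusted p = 0.0684 in limma), *mas5* (−2.06, adjusted p = 0.0705) and *psi1* (1.24, adjusted p = 0.149) kept their direction without passing the test. Without the pair of weakest arrays, a choice made after the data were seen, 4 members were called as deposited in WT cells, against 13.5% of all probe sets.

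Arrays of the same set could be compared directly as deposited, with no replicate check. *rpl32-2* early stationary array 3 against log array 3 differed by 3.20 for *hsp16*, 2.19 for *ssa1*, 1.41 for *psi1*, 0.57 for *hsp9* and −1.25 for *mas5*. In WT cells early stationary array 1 against log array 1 differed by 4.18, 3.15, 1.85, 0.91 and −1.92 for the same genes. In another set WT early stationary array 2 against the mean of WT log arrays 2 and 3 differed by 2.89, 2.46, 1.33, 0.81 and −1.45. The 5 genes thus kept their direction in each of these comparisons, and no set held *rpl32-1* arrays of both phases. The 3′ over 5′ signal of the *act1* control probe sets, a measure of RNA integrity, was 0.70 to 1.05 (log2) in early stationary *rpl32-1*, 0.08 to 0.74 in early stationary *rpl32-2* and 0.34 to 1.07 in early stationary WT cells. In log phase it was 0.22 to 0.68 in *rpl32-1*, 0.48 to 0.88 in *rpl32-2* and 0.40 to 0.56 in WT cells, and its part in these changes was not tested.

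The study asked which genes respond to each paralog, so each strain was compared with WT cells of the same phase. In log phase, 0 of the 8 members were called in *rpl32-1* or *rpl32-2* cells, and 0% of all probe sets were called in either. At an unadjusted p under 0.05, 0 of the 8 members passed in either strain, against 6.09% and 2.76% of all probe sets in limma. The largest difference of *rpl32-1* from WT cells was −0.53 ± 0.29 for *psi1* (adjusted p = 0.804, 95% interval −1.16 to 0.09), and that of *rpl32-2* was 0.37 ± 0.60 for *ssa1* (adjusted p = 0.998, 95% interval −0.91 to 1.65).

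The wide intervals of *hsp16* and *ssa1* in *rpl32-1* cells in log phase go with single arrays. *hsp16* averaged 10.93 ± 1.80 in *rpl32-1* cells and 10.57 ± 0.65 in WT cells (SD, n = 3 each), a difference of 0.36 ± 0.60 (adjusted p = 0.926 in limma, 95% interval −0.92 to 1.63). It was 1.28 without *rpl32-1* log array 1 and −0.52 without array 2. *ssa1* averaged 10.23 ± 1.68 in *rpl32-1* cells and 9.72 ± 0.48 in WT cells, a difference of 0.50 ± 0.60 (adjusted p = 0.907) that was 1.30 without array 1 and −0.38 without array 2. *rpl32-1* log array 2 was thus the highest log array for both genes and array 1 the lowest.

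**Figure D3:**
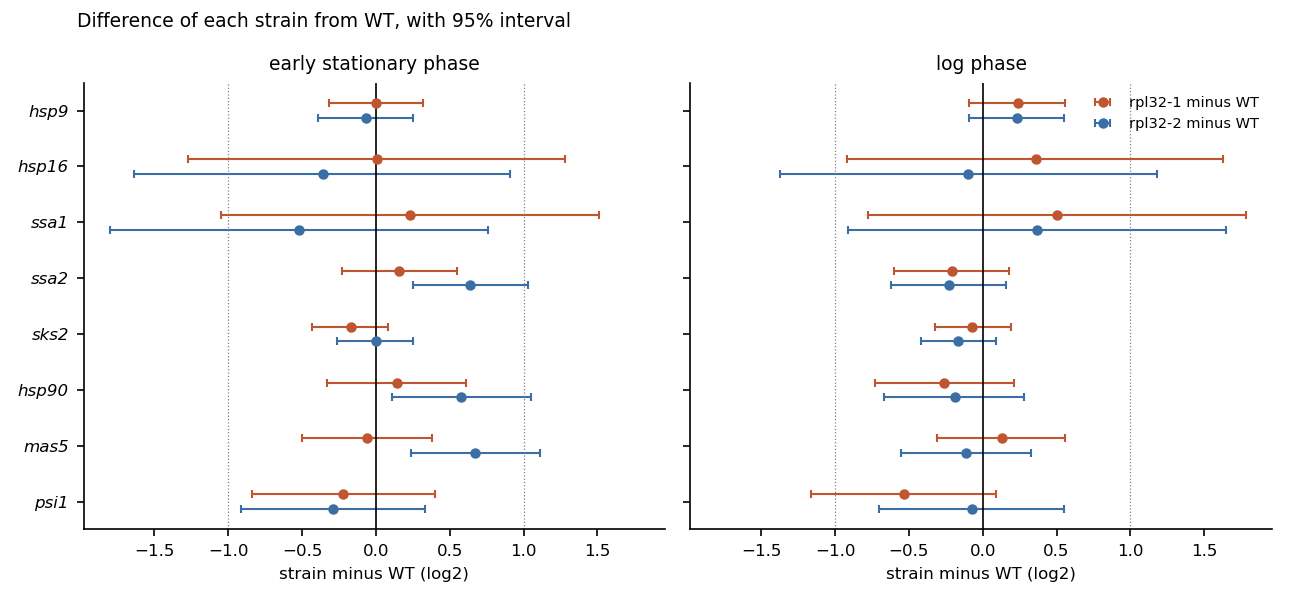
Difference of *rpl32-1* and *rpl32-2* cells from WT cells (log2) for each gene, with the 95% interval of the limma fit, in early stationary phase on the left and log phase on the right; dotted lines mark 2-fold. The intervals of *ssa2*, *hsp90* and *mas5* in early stationary *rpl32-2* cells lie above 0, and none of the differences passed after adjustment.

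In log phase *ssa2* and *hsp90* lay below WT on all 3 arrays of both strains. *ssa2* averaged 13.50 ± 0.13 in *rpl32-1*, 13.48 ± 0.10 in *rpl32-2* and 13.71 ± 0.05 in WT cells. *hsp90* averaged 13.23 ± 0.06 in *rpl32-1*, 13.30 ± 0.07 in *rpl32-2* and 13.50 ± 0.03 in WT cells (SD, n = 3 each). These differences ran from −0.26 to −0.19, with adjusted p values from 0.853 to 0.986 in limma, and all 4 had the opposite sign after median centring. In all, 2 of the 8 members were below WT without overlap in *rpl32-1* cells and 3 in *rpl32-2* cells, against 10.6% and 6.98% of all probe sets. Above WT without overlap were 0 members in *rpl32-1* cells, against 8.75% of all probe sets, and *hsp9* alone in *rpl32-2* cells (0.23 ± 0.15, adjusted p = 0.961, −0.15 as deposited), against 7.63% of all probe sets.

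In early stationary phase 0 of the 8 members and 0% of all probe sets were called in either strain. For *rpl32-2* cells the share of all probe sets changed with the arrays used. It was 6.91% without *rpl32-2* array 3 and 5.79% with arrays weighted by their quality, while the members called were 0 in both. Without WT array 2 the share was 0.613%. In *rpl32-1* cells the differences from WT ran from −0.22 for *psi1* to 0.23 for *ssa1*, with adjusted p of 0.927 or more in limma, and 0 members passed at an unadjusted p under 0.05 against 4.02% of all probe sets. None lay wholly above or below WT, where 2.96% and 3.61% of all probe sets did. The values of *hsp16* were 14.17 ± 0.08 in *rpl32-1* and 14.17 ± 0.07 in WT cells, a difference of 0.01 with a 95% interval of −1.27 to 1.28, since the fit shares 1 spread over the 6 groups.

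In *rpl32-2* cells 3 members passed at an unadjusted p under 0.05 in early stationary phase, against 21.0% of all probe sets. *mas5* averaged 11.25 ± 0.18 in *rpl32-2* and 10.58 ± 0.15 in WT cells (SD, n = 3 each), a difference of 0.67 ± 0.20 (adjusted p = 0.109 in limma, 95% interval 0.24 to 1.11), and all 3 *rpl32-2* arrays were above all WT arrays. *ssa2* averaged 13.75 ± 0.16 in *rpl32-2* and 13.12 ± 0.33 in WT cells, a difference of 0.64 ± 0.18 (adjusted p = 0.104, 95% interval 0.25 to 1.03), again with no overlap. *hsp90* averaged 13.53 ± 0.12 in *rpl32-2* and 12.95 ± 0.48 in WT cells, a difference of 0.58 ± 0.22 (adjusted p = 0.164, 95% interval 0.11 to 1.05), and WT array 2 lay within the range of the *rpl32-2* arrays. In log phase WT cells these genes averaged 12.20 (*mas5*), 13.71 (*ssa2*) and 13.50 (*hsp90*). Members without overlap were 2 above WT (*mas5* and *ssa2*) and 2 below (*hsp16* and *psi1*), where 5.82% and 6.44% of all probe sets were above and below.

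The 3 differences were positive under every scaling tried, but unequal between arrays of 1 set. *rpl32-2* array 1 against WT array 1 in early stationary phase differed as deposited by 0.95 for *ssa2*, 0.84 for *hsp90* and 0.79 for *mas5*. *rpl32-2* array 3 against WT array 2, in another set, differed by 0.08 for *ssa2*, −0.02 for *hsp90* and 0.39 for *mas5*. These comparisons rest on single arrays and have no replicate check. Leaving out the 5 arrays with a low *rpl32-2* probe set keeps only *rpl32-2* array 1 in early stationary phase, the same single array. The differences from WT cells were then 0.78 for *ssa2*, 0.71 for *hsp90* and 0.67 for *mas5*, also with no replicate check.

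Whether the response to growth phase differed between strains was tested directly as the phase change of a strain minus that of WT cells, which shares the WT arrays between strains. In *rpl32-2* cells this was 0.87 ± 0.26 for *ssa2* (adjusted p = 0.376 in limma, 95% interval 0.32 to 1.42), 0.78 ± 0.31 for *hsp90* (adjusted p = 0.386) and 0.78 ± 0.29 for *mas5* (adjusted p = 0.378). For *hsp16* it was −0.27 ± 0.85 with a 95% interval of −2.07 to 1.54, for *ssa1* −0.89 ± 0.85 with an interval of −2.70 to 0.92, and for *psi1* −0.22 ± 0.41 with an interval of −1.10 to 0.66. In *rpl32-1* cells all members lay between −0.35 for *hsp16* and 0.40 for *hsp90*, with adjusted p of 0.728 or more. Of the 8 members 0 were called in either strain, and 0% of all probe sets. Without *rpl32-2* early stationary array 3 the count of members for *rpl32-2* cells was again 0, against 4.70% of all probe sets. At an unadjusted p under 0.05, 3 members passed in *rpl32-2* cells and 0 in *rpl32-1* cells, against 12.2% and 6.64% of all probe sets. With arrays weighted by their quality *ssa2* alone was called in *rpl32-2* cells, at 1.01 (adjusted p = 0.00145), where 7.39% of all probe sets were called.

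The factors that act on these genes were read from a separate list of 6 genes. Hsf1, the heat shock factor, had mRNA of 11.95, 12.03 and 12.12 in *rpl32-1* cells, 11.19, 11.20 and 11.99 in *rpl32-2* cells and 11.86, 12.24 and 11.62 in WT cells in early stationary phase. In log phase *hsf1* had 10.67, 11.00 and 10.28 in *rpl32-1* cells, 10.24, 10.39 and 10.79 in *rpl32-2* cells and 10.47, 10.79 and 10.73 in WT cells. The phases did not overlap in any strain. *hsf1* rose 2.62-fold in *rpl32-1* cells (1.39 ± 0.24, adjusted p = 0.00029 in limma), had a change of 0.99 ± 0.24 (adjusted p = 0.00568), just under 2-fold, in *rpl32-2* cells and rose 2.37-fold in WT cells (1.25 ± 0.24, adjusted p = 0.00083). As deposited it was 0.68 in WT cells (adjusted p = 0.483).

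*atf1*, the transcription factor downstream of Sty1, averaged 11.45 ± 0.20 in *rpl32-1*, 11.14 ± 0.13 in *rpl32-2* and 11.39 ± 0.28 in WT cells in early stationary phase, against 8.30 ± 0.58 in *rpl32-1*, 8.92 ± 0.40 in *rpl32-2* and 8.86 ± 0.30 in WT cells in log phase (SD, n = 3 each). It rose by 3.15 ± 0.27 in *rpl32-1*, 2.21 ± 0.27 in *rpl32-2* and 2.53 ± 0.27 in WT cells, all called. *pcr1*, which pairs with Atf1, rose by 1.34 ± 0.33 in *rpl32-2* cells (adjusted p = 0.00602 in limma), and had changes of 0.18 ± 0.33 in *rpl32-1* and 0.95 ± 0.33 in WT cells that were not called. The 3 other genes of the list, *sty1*, *wis1* and *prr1*, were not called in any strain.

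A wider list held 35 other chaperones and co-chaperones with a named probe set. In *rpl32-1* cells 1 of the 35 was called higher and 2 lower in early stationary phase, against 11.7% and 11.1% of all probe sets. Their median change was −0.40, beside −0.09 over all. In *rpl32-2* cells 1 was higher and 2 lower, against 5.72% and 6.09% of all (median −0.19, beside −0.04). In WT cells 1 was higher and 4 lower, against 9.74% and 9.09% of all (median −0.45, beside −0.07). Of the 35 changes 28 were below 0 in *rpl32-1*, 26 in *rpl32-2* and 29 in WT cells. The share of all probe sets below 0 was not counted. The gene called higher in all 3 strains was *epr1*, which codes for a J-domain protein, with 2.36 ± 0.40 in *rpl32-1*, 1.45 ± 0.40 in *rpl32-2* and 1.83 ± 0.40 in WT cells (adjusted p = 0.00227 in limma). Its lowest levels were 6.52 on *rpl32-1* log array 3, where signal was weak, and 6.82 on *rpl32-2* log array 1. Whether *epr1* exceeded background on these arrays was not examined. Of a list of other small heat shock proteins 0 genes had a named probe set.

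The genes called lower belong to different compartments. *zuo1*, whose product is the J-domain partner of the ribosome-bound Hsp70 in *S. cerevisiae*, had 11.33, 11.00 and 10.72 in *rpl32-1* cells, 11.33, 11.34 and 11.32 in *rpl32-2* cells and 11.00, 11.30 and 11.28 in WT cells in early stationary phase. The log phase values were 12.64, 12.33 and 12.59 in *rpl32-1* cells, 12.37, 12.53 and 12.72 in *rpl32-2* cells and 12.38, 12.59 and 12.64 in WT cells. *zuo1* was called lower in all 3 strains, with −1.51 ± 0.16 in *rpl32-1*, −1.21 ± 0.16 in *rpl32-2* and −1.35 ± 0.16 in WT cells (adjusted p = 2.2e-05 in limma). *wis2*, a cyclophilin that works with Hsp90, fell by 1.29 ± 0.35 in *rpl32-1* and 1.37 ± 0.35 in WT cells, and had −0.31 ± 0.35 (adjusted p = 0.531 in limma) in *rpl32-2* cells. *mge1*, the exchange factor of mitochondrial Hsp70, fell by 1.09 ± 0.22 in *rpl32-2* and 1.16 ± 0.22 in WT cells and had −0.94 ± 0.22 (adjusted p = 0.00305 in limma), short of 2-fold, in *rpl32-1* cells, and *ero12*, an oxidase of the endoplasmic reticulum, fell by 1.07 ± 0.32 in WT cells.

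**Figure D4:**
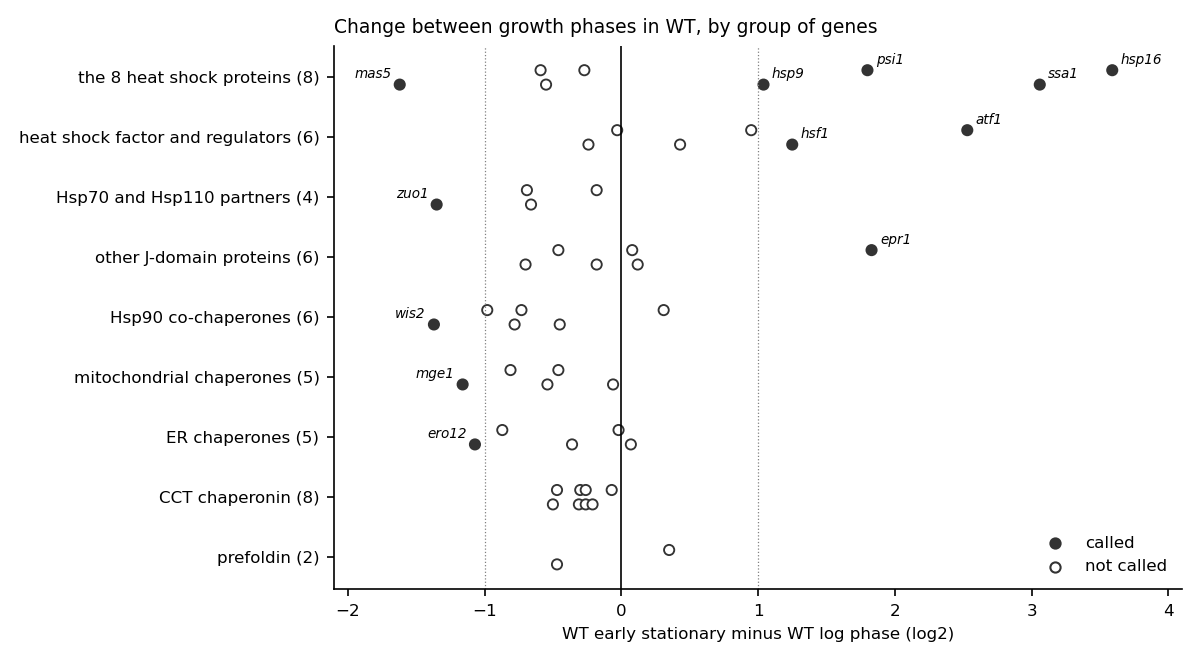
Change between early stationary and log phase in WT cells (log2), 1 point per gene, for the 8 heat shock proteins and for other chaperone lists, with the number of genes in brackets; filled points were called and dotted lines mark 2-fold. The 8 subunits of the CCT chaperonin lie between −0.50 and −0.07 and none was called, against 18.8% of all probe sets. *hsp16* and *ssa1* lie above 3.

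Of the 8 subunits of CCT, the ring that folds actin and tubulin, 0 were called in any strain. Of all probe sets 22.8% were called in *rpl32-1*, 11.8% in *rpl32-2* and 18.8% in WT cells. The WT changes of the 8 subunits ran from −0.50 to −0.07. *bip1*, the Hsp70 of the endoplasmic reticulum, had changes of −0.71 ± 0.19 in *rpl32-1*, 0.00 ± 0.19 in *rpl32-2* and −0.87 ± 0.19 in WT cells (adjusted p = 0.00195 in limma, 1.83-fold). *sti1*, which joins Hsp70 and Hsp90, had −0.29 ± 0.22 in *rpl32-1*, −0.16 ± 0.22 in *rpl32-2* and −0.78 ± 0.22 in WT cells, and *mcp60*, the mitochondrial Hsp60, had −0.72 ± 0.26 in *rpl32-1*, −0.19 ± 0.26 in *rpl32-2* and −0.81 ± 0.26 in WT cells. These were not called. As deposited, 2 of the 5 chaperones and regulators of these lists called in *rpl32-1* cells were called, 1 of 5 in *rpl32-2* cells and 0 of 7 in WT cells.

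The members split into patterns that other genes shared. Likeness was taken as the root mean square difference of log2 values over the 18 arrays, each gene centred on its own mean, and is given without a test. The pattern nearest to *hsp16*, whose own spread by this measure was 1.83, was that of *lsd90* (0.39), then *mug191* (0.43) and *ssa1* (0.48). That nearest to *ssa1* was *rds1* (0.46), then *hsp16* (0.48) and *ntp1*, a trehalase (0.54). *psi1*, with a spread of 0.99, was nearest to *git5* (0.18), *gpx1*, a peroxidase (0.19), and *tps1*, a trehalose phosphate synthase (0.23). *hsp9* was nearest to *ubi4*, a polyubiquitin gene (0.14), with *atp7* (0.15) and *grx1* (0.16) almost as near, beside its own spread of 0.46. Its pattern is limited by the top of the scale.

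*ssa2* and *hsp90* were each nearest to the other (0.10, beside spreads of 0.29 and 0.31), followed by *pyk1*, pyruvate kinase, for *ssa2* (0.16) and *pgr1* for *hsp90* (0.17). *mas5*, with a spread of 0.78, was nearest to *arg3* (0.19), *arg5* (0.20) and *arg1* (0.21), genes of arginine synthesis. *sks2* was nearest to the ribosomal protein gene *rps1601* (0.08), *tyr1* (0.09) and *rps002* (0.09), beside a spread of 0.18.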

How the data were processed

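The authors scanned Affymetrix Yeast Genome 2.0 arrays and made log2 expression values with RMA in Partek Genomics Suite 6.5. The deposited table holds these log2 values for 10928 probe sets and 18 arrays. Which arrays were normalized together is not stated. Names came from the deposited annotation, with 113 symbols updated from the reference. The 2601 *S. cerevisiae*, 166 control and 5224 unnamed probe sets were left out of the tests. Background is percentile 95 of the *S. cerevisiae* probe sets of an array. Values were quantile-normalized over 2937 *S. pombe* probe sets and fitted with limma 3.58.1 in R 4.3.3 (statmod 1.5.0), as means of the 6 groups (12 residual degrees of freedom), in 9 comparisons. Tests were two-sided, with Benjamini-Hochberg adjustment over all probe sets. Sets of arrays were formed by single linkage at 0.2 (log2) on ranked values. The number of arrays limits the precision. Tables were made with Python 3.11.15, pandas 2.3.3 and numpy 2.4.6, and figures with matplotlib 3.10.9.

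The members, the gene lists and the choice of quantile normalization were set with earlier results of these data known. Every member is named. Of the other lists, up to 4 called genes per list are named in the comparison discussed, and *bip1*, *sti1*, *mcp60* and *pcr1* were chosen after their values were seen. The same-numbered replicates of *rpl32-1* and WT cells deviated together in log phase (correlations 0.307, 0.108 and 0.114) and in early stationary phase (0.0991, 0.197 and 0.475). Between the phases of each strain all correlations were above 0, from 0.0243 to 0.286. Those of *rpl32-2* and WT cells ran from −0.28 to 0.394 in log phase and from −0.334 to 0.189 in early stationary phase. The scripts were tested on simulated data. Promoter motifs and protein identities were planned and not run, since no sequence tables were used here. Other settings numbered 30, with 2 more added after the data were seen. The labels name the plasmid pESP3, while the methods name pREP3X for overexpression of these genes.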

Additional observations from a re-analysis of the deposited data

How the results depend on the processing

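Of 384 values of the 12 called changes under the alternatives, 367 kept their call and direction, 17 lost the call and 0 changed sign. Of 1888 values of the 60 changes not called, 10 became called and 85 changed sign, all of these without a call. The cause of these changes was not tested. The main limits are the sets of arrays that do not share a distribution, the weak signal of *rpl32-1* log array 3 and WT early stationary array 3, the labels of the *rpl32-2* arrays, and the top of the scale for *hsp9*.

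The count of members called between phases in *rpl32-1* cells was 2 with the methods' t-test after Benjamini-Hochberg adjustment, in place of 4 (19.5% of all probe sets, in place of 22.8%). The members that lost the call there were *hsp16* and *ssa1*, and *ssa1* lost it before adjustment too. In *rpl32-2* cells the count of members called was 5 with no limit on the fold, in place of 3 (34.3% of all, in place of 11.8%). In WT cells it was 1 as deposited, in place of 5 (1.80% of all, in place of 18.8%). Without the 5 arrays with a low *rpl32-2* probe set, a choice made after the data were seen that leaves 1 array in each *rpl32-2* group and assumes that it varies like the others, it was 0 in *rpl32-2* cells (3.47% of all). For the difference of phase changes between *rpl32-2* and WT cells it was 1 with array weights (which ran from 0.13 to 10.6) against 0 (7.39% of all, in place of 0%). Array weights also called 1.23% of all probe sets between *rpl32-1* and WT cells in log phase, 0.579% between *rpl32-2* and WT cells in log phase and 2.21% in the *rpl32-1* minus WT phase change, with 0 members. As deposited without the pair of weakest arrays 13.4% were called between *rpl32-2* and WT cells in log phase, also with 0 members. With the replicate block the counts were 4 in *rpl32-1*, 3 in *rpl32-2* and 5 in WT cells (22.8%, 11.9% and 18.8% of all). They were 0 in all other comparisons (0% of all), and the block changed no call in these. With a replicate left out the counts were 4 in *rpl32-1*, 2 to 3 in *rpl32-2* and 4 to 5 in WT cells. The shares of all probe sets were then 21.4% to 23.6%, 9.33% to 13.6% and 17.6% to 21.2%. *hsp9* in WT cells was also under 2-fold with the set of arrays as a fixed term (0.98) and without the pair of weakest arrays (0.98).

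Signs that changed are given by setting. As deposited, the difference from WT in log phase was −0.13 for *mas5* in *rpl32-1* cells and −0.15 for *hsp9* and −0.33 for *ssa1* in *rpl32-2* cells. The early stationary difference was −0.13 for *hsp16* and −0.02 for *ssa1* in *rpl32-1* cells and 0.24 for *psi1* in the *rpl32-2* strain. The *rpl32-2* phase change of *sks2* was 0.22, and the *rpl32-2* minus WT phase change was 0.14 for *hsp9*, 0.52 for *hsp16*, 0.25 for *ssa1* and 0.90 for *psi1*. Without the pair of weakest arrays the deposited values gave 0.06 for *ssa2* and 0.17 for *sks2* in *rpl32-1* log phase, −0.31 for *hsp16*, −0.56 for *hsp90*, −0.20 for *ssa1* and −0.47 for *ssa2* in *rpl32-1* early stationary phase, −0.53 for *hsp90* and for *ssa2* in the *rpl32-1* minus WT phase change, and 0.04 for *hsp9*, 0.34 for *hsp16*, 0.06 for *ssa1* and 0.56 for *psi1* in the *rpl32-2* minus WT phase change. Without these arrays the normalized difference of *rpl32-1* from WT cells in early stationary phase was −0.02 for *hsp90* and 0.01 for *mas5*.

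Median centring gave 0.13 for *hsp90*, 0.21 for *ssa2* and 0.28 for *sks2* in *rpl32-1* log phase, 0.17 for *hsp90*, 0.20 for *ssa2*, 0.15 for *sks2*, 0.10 for *mas5* and 0.02 for *psi1* in *rpl32-2* log phase, −0.09 for *hsp16* in *rpl32-1* early stationary phase, −0.28 for *hsp90* and −0.21 for *ssa2* in the *rpl32-2* phase change, −0.05 for *hsp90* and −0.15 for *ssa2* in the *rpl32-1* minus WT phase change and −0.38 for *sks2* in the *rpl32-2* minus WT phase change. With the set of arrays as a fixed term, values were 0.01 for *sks2* and 0.27 for *mas5* in *rpl32-2* log phase, −0.30 for *hsp16*, 0.02 for *sks2* and 0.33 for *mas5* in *rpl32-1* early stationary phase, 0.16 for *sks2* and 0.30 for *mas5* in the *rpl32-1* minus WT phase change and −0.06 for *sks2* in the *rpl32-2* minus WT phase change. As a random block it gave 0.08 for *mas5* in *rpl32-2* log phase and −0.20 for *hsp16* and 0.10 for *mas5* in *rpl32-1* early stationary phase. Array weights gave −0.14 for *ssa1* in *rpl32-2* log phase, −0.01 for *hsp16* and 0.09 for *mas5* in *rpl32-1* early stationary phase and 0.21 for *psi1* in the *rpl32-2* minus WT phase change. Without the 5 arrays, values were 0.08 for *hsp90* in the *rpl32-1* phase change, 0.26 for *hsp16* and 0.44 for *psi1* in *rpl32-2* log phase, −0.03 for *hsp16* and 0.18 for *mas5* in *rpl32-1* early stationary phase and 0.05 for *mas5* in the *rpl32-1* minus WT phase change.

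With a replicate left out, the *rpl32-1* phase change of *hsp90* ran from −0.38 to 0.08. The *rpl32-1* difference from WT in log phase ran from −0.52 to 1.28 for *hsp16* and from −0.38 to 1.30 for *ssa1*, and the *rpl32-2* difference from −0.43 to 0.22 for *hsp16*, −0.22 to 0.02 for *mas5* and −0.33 to 0.21 for *psi1*. In early stationary phase the *rpl32-1* difference ran from −0.03 to 0.05 for *hsp16*, −0.08 to 0.42 for *hsp90*, −0.02 to 0.36 for *ssa2* and −0.30 to 0.18 for *mas5*. The *rpl32-1* minus WT phase change ran from −1.27 to 0.53 for *hsp16*, −1.06 to 0.61 for *ssa1*, −0.42 to 0.05 for *mas5* and −0.05 to 0.61 for *psi1*, and the *rpl32-2* minus WT phase change from −0.59 to 0.06 for *hsp16* and −0.50 to 0.04 for *psi1*.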

Other observations

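The arrays also carry probe sets for chaperones of *S. cerevisiae*, which were outside every comparison. Background is itself percentile 95 of the *S. cerevisiae* probe sets of an array. Most of them lie below it by definition, and a value above it is not a test of detection. Measured over the background of each array (log2), the *S. cerevisiae* *SSB1* probe set that can bind several transcripts stood at 3.62 on *rpl32-1* log array 3 and 2.85 on WT early stationary array 3, and at most at 2.37 on the other 16 arrays, 10 of which were above background. A second *SSB1* probe set was below background on these arrays (−2.16 and −1.63 in that order). The *HSP60* probe set stood at 1.79 and 2.37 on them, and at most at 0.91 on the other 16 arrays, 15 of which were above background. Both arrays are the ones of weakest *S. pombe* signal. The *HSP10* probe set was below background on both (−0.46 and −1.05) and above it on 5 of the others. The second *SSB1* probe set and the *SSA1*, *SSA2*, *SSB2*, *SSC1*, *HSP78* and *HSP104* probe sets of *S. cerevisiae* were above background on 0 of the 18 arrays.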
